A study of Mus musculus with 2 samples.

Results

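The genes described here build, sense, store and export cholesterol. They are 32 named genes, and all 32 passed the rule of 20 or more unique molecular identifiers (UMIs, each standing for 1 captured transcript) in the whole matrix, out of 16289 genes that passed it among the 32285 measured. The list holds 18 synthesis enzymes, 5 genes of sterol sensing, 5 genes of efflux and of the liver X receptors (LXR), and 4 genes of sterol transfer, storage and lysosomal exit. They were measured by droplet single-cell sequencing of transcript 3′ ends in CD45+ cells (leukocytes) sorted from digested full-thickness mouse skin, taken at day 2 after diphenylcyclopropenone (DPCP, a contact sensitizer) and from control skin at day 0. The DPCP and control cells carried different oligonucleotide tags, were pooled into 1 library, and were separated again by tag. Strain, sex, age and the number of mice behind each tag are not given in the sources used here. Each condition is therefore 1 sample, no difference has a replicate check, and no p-value is given.

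Cells make cholesterol from acetyl-CoA through the mevalonate pathway and then through squalene and a series of sterols. When membrane sterol is low, the SCAP protein escorts SREBP-2 (Srebf2) to the Golgi and the released factor switches the synthesis genes on, and INSIG proteins hold the complex back when sterol is plentiful. Oxysterols activate LXRα (Nr1h3) and LXRβ (Nr1h2), whose targets include the export pumps ABCA1 and ABCG1 and the ubiquitin ligase MYLIP, which removes lipoprotein receptors. Phagocytes that clear dying cells take in large amounts of membrane cholesterol, which leaves the lysosome through NPC2 and NPC1 and is exported or esterified by SOAT1.

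A total of 7588 DPCP cells and 4970 control cells passed the filters. DPCP cells held 53121083 UMIs with a median of 4728 per cell, and control cells 51852466 UMIs with a median of 8803 per cell. Levels are given as CPM, the UMIs of a gene per 1000000 UMIs after adding up the cells of a class. Each ratio has the DPCP level on top and comes with an exact 95% interval. These intervals cover counting error only, not variation between animals. A gene or sum is called higher or lower where its ratio reached 1.5-fold with an interval that excluded 1 and at least 50 UMIs over both conditions. Cells were placed in classes by marker genes, and 8 classes with at least 50 cells in each condition were compared. In DPCP skin 46.0% of the kept cells were neutrophil-like, against 2.05% in control skin. A class of phagocytes was defined by Lyz1, Ear2, Retnla, Tenm4, Thsd4 and Upb1, of which at least 3 were required. It made up 0.962% of DPCP cells and 25.5% of control cells. That class is named by its genes and not as a cell type. A class is a range and not a natural boundary: 40 of the 73 DPCP cells and 599 of the 1266 control cells in it held exactly 3 of its markers, the fewest allowed. No class could be given to 2891 DPCP cells and 2481 control cells. Among kept cells 37.7% of the DPCP cells and 0% of the control cells had less than 80% of their tag UMIs from their own tag, and no barcode sequence was shared between the conditions. In a class sum, more RNA of a gene per cell and more cells that express it cannot be told apart. The neutrophil transcripts S100a8 and S100a9 summed to 1371 to 3315 CPM in the other 7 compared classes of DPCP skin and to 433 to 632 CPM in those of control skin. Values without the cells rich in them are among the alternatives.

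Over all kept cells, efflux and LXR transcripts took a larger share of UMIs in DPCP skin than in control skin and synthesis transcripts a smaller one, neither by 1.5-fold. The 5 efflux and LXR genes summed to 460 CPM in DPCP cells and 315 CPM in control cells (ratio 1.46, 95% interval 1.43 to 1.49). The 18 synthesis genes summed to 259 CPM in DPCP cells and 341 CPM in control cells (ratio 0.759, interval 0.742 to 0.776). There were 0.563 synthesis UMIs for each efflux and LXR UMI in DPCP skin and 1.08 in control skin (ratio 0.520, interval 0.505 to 0.536). Among the members, 4 were called higher (Abca1, Nr1h3, Mylip and Soat1) and 9 lower (Mvk, Mvd, Lss, Cyp51, Nsdhl, Dhcr7, Insig1, Stard4 and Npc2). Of all 14377 genes with 50 or more UMIs, 20.7% were called higher and 25.2% lower, with a median log2 ratio of -0.17. The members' counts are thus near that background or below it. By role, 6 of 18 synthesis genes were lower and none higher, and 3 of 5 efflux and LXR genes were higher and none lower.

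These pooled values mix cells of different kinds. Neutrophil-like cells held 34.8% of DPCP UMIs, 39.8% of efflux and LXR UMIs, 44.0% of Abca1 UMIs and 20.3% of synthesis UMIs, against 0.632%, 0.759%, 0.390% and 0.430% of these in control. In control skin the Lyz1 and Tenm4 phagocytes held 36.4% of synthesis UMIs, and in DPCP skin 1.47%. Weighting the DPCP level of each of the 8 classes by that class's share of control UMIs gave 242 CPM of synthesis transcripts, against 338 CPM in control (ratio 0.715), and 409 CPM of efflux and LXR transcripts, against 308 CPM in control (ratio 1.33). As measured, the DPCP levels over the same 8 classes were 219 CPM and 443 CPM, with ratios of 0.648 and 1.44, so both ratios lay nearer to 1 with the weights of control skin. The control weights fall mainly on 1 class: Lyz1 and Tenm4 phagocytes held 35.7% of all control UMIs, and no other compared class more than 6.095%. The weighted values therefore rest largely on the 73 DPCP cells of that class.

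**Figure D1:**
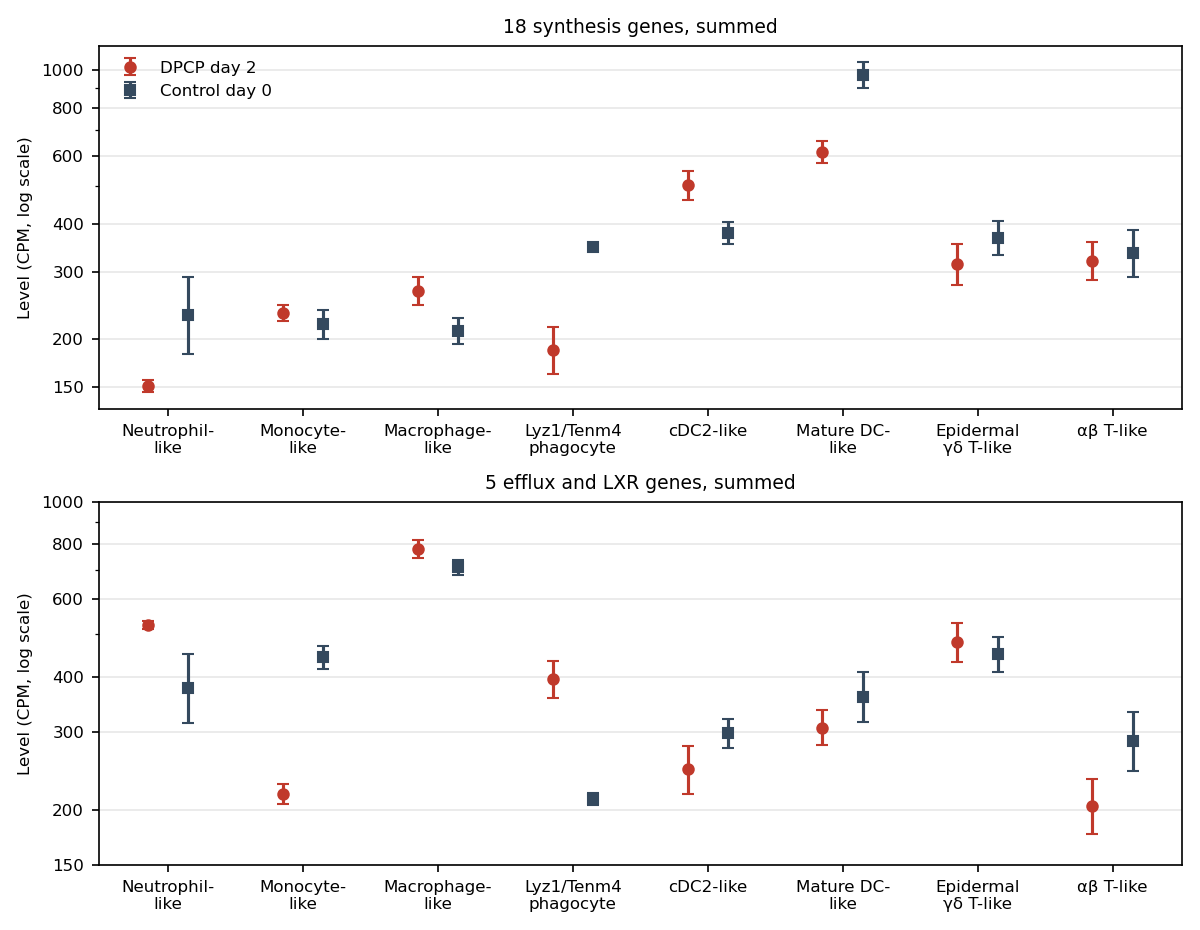
Summed level of the 18 synthesis genes (upper panel) and of the 5 efflux and LXR genes (lower panel) in the 8 compared classes, in CPM on log axes, with DPCP day 2 as red circles and control day 0 as dark squares; bars are exact 95% Poisson intervals (counting error only). Synthesis levels are highest in mature dendritic cell-like cells in both conditions, and the efflux and LXR sum is higher in DPCP in the Lyz1 and Tenm4 phagocytes and lower in DPCP in the monocyte-like cells.

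The efflux and LXR sum passed 1.5-fold upward in the Lyz1 and Tenm4 phagocytes and downward in the monocyte-like cells. In the phagocytes synthesis was lower and efflux higher after DPCP. Their synthesis sum was 187 CPM in 73 DPCP cells and 348 CPM in 1266 control cells (ratio 0.539, interval 0.466 to 0.620), and their efflux and LXR sum was 395 CPM in DPCP cells and 212 CPM in control cells (ratio 1.86, interval 1.68 to 2.06). With 1 more class marker required, the log2 ratio of this efflux and LXR sum was 0.58, beside 0.90, which is just under 1.5-fold. In monocyte-like cells the synthesis sum was 234 CPM in 503 DPCP cells and 219 CPM in 227 control cells (ratio 1.07, interval 0.969 to 1.18), whereas the efflux and LXR sum was 217 CPM in DPCP cells and 444 CPM in control cells (ratio 0.490, interval 0.453 to 0.530). Synthesis UMIs per efflux and LXR UMI stood at 0.474 in DPCP and 1.64 in control phagocytes, and at 1.08 in DPCP and 0.494 in control monocyte-like cells. This quotient does not depend on the total used for scaling.

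Among the early enzymes, which run from acetyl-CoA to farnesyl diphosphate, the phagocytes had 3 of 7 members called lower and none higher. Hmgcs1, the synthase that makes HMG-CoA, was at 17.6 CPM in DPCP phagocytes and 35.9 CPM in control phagocytes (ratio 0.490, interval 0.293 to 0.772). Idi1, the isomerase of the isoprenoid units, was at 6.49 CPM in DPCP and 29.2 CPM in control (ratio 0.222, interval 0.0890 to 0.461), from 7 DPCP and 540 control UMIs. Fdps, the farnesyl diphosphate synthase, was at 5.56 CPM in DPCP and 18.2 CPM in control (ratio 0.306, interval 0.112 to 0.674). The kinases and the decarboxylase of the same branch (Mvk, Pmvk and Mvd) had ratios of 0.635, 0.534 and 0.870 with intervals that included 1.

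Of the 11 sterol enzymes, 4 were called lower in the phagocytes. Cyp51, the lanosterol demethylase, was at 13.0 CPM in DPCP and 46.9 CPM in control phagocytes (ratio 0.277, interval 0.151 to 0.467). Sc5d, the desaturase late in the pathway, was at 5.56 CPM in DPCP and 22.7 CPM in control (ratio 0.245, interval 0.0894 to 0.538). For Sqle, the squalene epoxidase that catalyses a rate-limiting step, the level was 4.64 CPM in DPCP and 11.1 CPM in control (ratio 0.416, interval 0.134 to 0.987), from 5 DPCP UMIs, and with 1 more class marker its log2 ratio was -0.32, beside -1.26, no longer past 1.5-fold. Fdft1, the squalene synthase, rested on 2 DPCP UMIs against 243 control UMIs (ratio 0.141, interval 0.0170 to 0.516). Ebp and Dhcr7, which act on later sterols, had ratios of 0.831 and 0.930 with intervals that included 1, so not every step was called lower.

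Of the 5 sensing genes 2 were called lower in these phagocytes. Srebf2 was at 51.0 CPM in DPCP and 89.0 CPM in control (ratio 0.573, interval 0.430 to 0.750), and Insig1, itself a sterol-responsive target, at 20.4 CPM in DPCP and 40.7 CPM in control (ratio 0.502, interval 0.313 to 0.766). Stard4, a sterol transfer protein whose gene is an SREBP-2 target, was at 5.56 CPM in DPCP and 15.4 CPM in control (ratio 0.361, interval 0.131 to 0.796). The ratios of Insig2, Srebf1 and Scap were 0.856, 1.12 and 0.896, none of them called. In all, 10 of 31 members with 50 or more UMIs were called lower and 2 higher in the phagocytes, against 4.39% of 10367 genes lower and 5.54% higher. The median log2 ratio was -0.88 over the 18 synthesis genes and -0.01 over all genes tested. Fatty acid synthesis genes that SREBP factors also control were listed beside the members, and 3 of the 8 with 50 or more UMIs were called lower and none higher: Fasn, the fatty acid synthase (ratio 0.475, interval 0.203 to 0.948), the desaturase Scd2 (ratio 0.193, interval 0.0623 to 0.453) and the elongase Elovl6 (ratio 0.319, interval 0.0862 to 0.829). Markers of monocytes had a median of 24 UMIs per DPCP cell and 19 per control cell in this class, and the class's own markers 256 per DPCP cell and 327 per control cell.

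**Figure D2:**
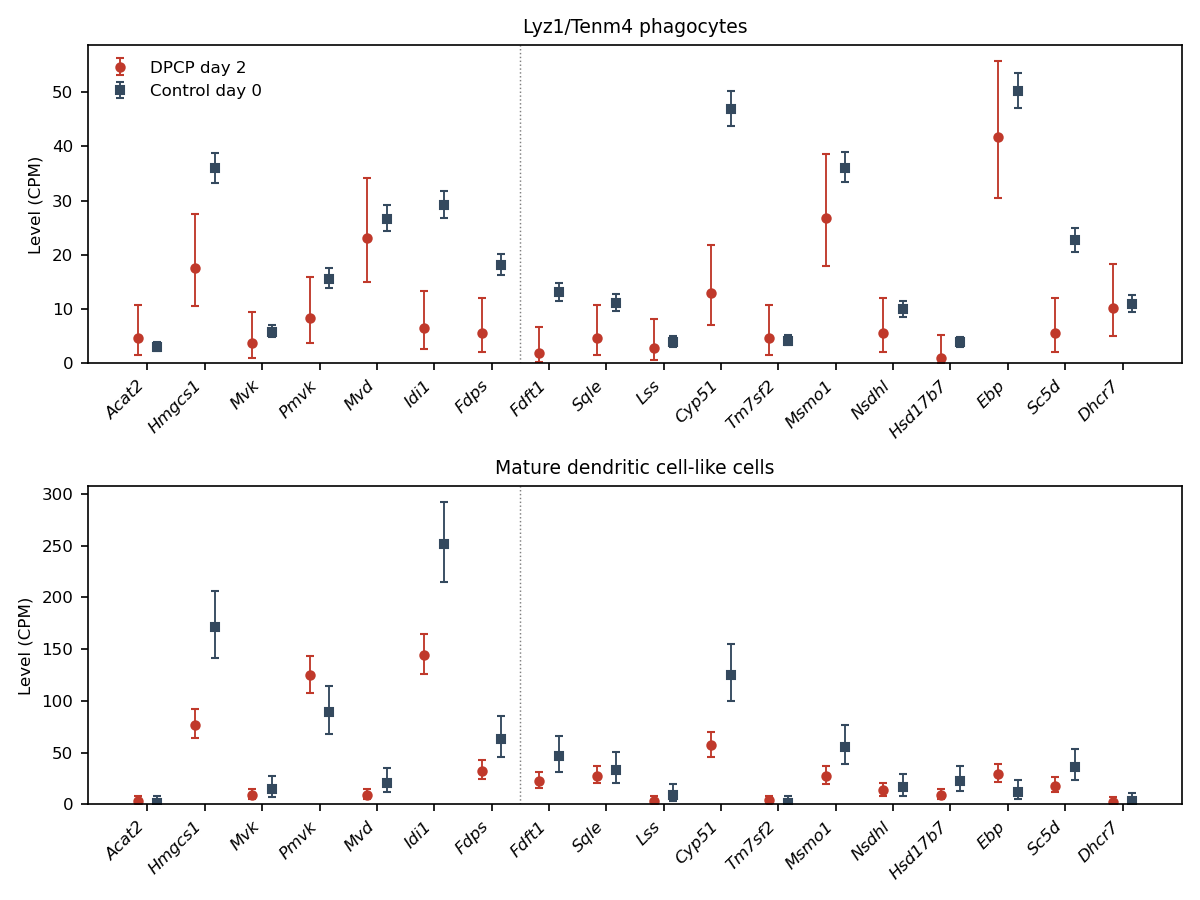
Level in CPM of each of the 18 synthesis genes in Lyz1 and Tenm4 phagocytes (upper panel) and mature dendritic cell-like cells (lower panel), with early enzymes left and sterol enzymes right of the dotted line; DPCP day 2 as red circles left of control day 0 as dark squares, bars are exact 95% Poisson intervals. Cyp51, Idi1 and Hmgcs1 are lower in DPCP in both classes, whereas Ebp is higher in DPCP in the mature dendritic cell-like cells and not called in the phagocytes.

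Mature dendritic cell-like cells, which express Ccr7 and migrate to lymph nodes, had the highest synthesis level of the 8 classes in both conditions, and it was lower after DPCP. Their synthesis sum was 614 CPM in 88 DPCP cells and 974 CPM in 51 control cells (ratio 0.631, interval 0.570 to 0.698). Keeping cells that also held markers of a second class brought the log2 ratio of this sum to -0.47, beside -0.67, under 1.5-fold. Markers of other classes were also at other levels in these cells: neutrophil markers at 2890 CPM in DPCP and 563 CPM in control, cDC2 markers at 658 CPM in DPCP and 406 CPM in control, Langerhans cell markers at 561 CPM in DPCP and 266 CPM in control, and monocyte markers at 490 CPM in DPCP and 236 CPM in control. Among those at a lower level in DPCP were markers of the Lyz1 and Tenm4 phagocytes, at 673 CPM in DPCP and 938 CPM in control. The part of these marker differences in the synthesis values was not tested. Idi1 was at 144 CPM in DPCP and 251 CPM in control (ratio 0.574, interval 0.468 to 0.706). Hmgcs1 was at 77.0 CPM in DPCP and 172 CPM in control (ratio 0.449, interval 0.344 to 0.585). Cyp51 was at 56.9 CPM in DPCP and 125 CPM in control (ratio 0.456, interval 0.334 to 0.623). Fdps, Fdft1, Msmo1 (the sterol methyl oxidase) and Sc5d were lower as well, with ratios of 0.485 to 0.512, and Msmo1 lost its call with cells of a second class kept (log2 ratio -0.53, beside -1.04). Ebp, the sterol isomerase, went the other way, at 29.1 CPM in DPCP and 12.0 CPM in control (ratio 2.42, interval 1.13 to 5.94), from 45 DPCP and 8 control UMIs.

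In mature dendritic cell-like cells 10 of the 18 synthesis genes reached 50 UMIs, and 7 were called lower. Of these 7, 6 were also among the 7 called lower in the Lyz1 and Tenm4 phagocytes, which is 85.7% of each list: Hmgcs1, Idi1, Fdps, Fdft1, Cyp51 and Sc5d. Over all genes, 24 were called lower in both classes, which is 5.27% of the 455 called lower in the phagocytes and 5.05% of the 475 called lower in the mature dendritic cell-like cells. Since 5333 genes had 50 or more UMIs in both classes, these 2 shares also count genes that could be called in 1 class only. The cells counted in the 2 classes are different, but they come from the same pooled library. In mature dendritic cell-like cells 9 of 18 members with 50 or more UMIs were called lower and 2 higher, against 8.56% of 5546 genes lower and 16.8% higher. Beside the members, Cyp7b1, which hydroxylates oxysterols, was at 8.41 CPM in DPCP and 84.3 CPM in control (ratio 0.0998, interval 0.0501 to 0.185), from 13 DPCP and 56 control UMIs. Other listed genes were called higher: the further synthesis gene Ggps1 (ratio 2.11), the uptake receptors Msr1 (3.65) and Lrp1 (2.01), and the storage gene Plin2 (2.58). Unlike in the phagocytes, none of the 3 SREBP-controlled fatty acid synthesis genes with 50 or more UMIs was called lower.

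The promoters of these genes carry a common short motif. SREBP factors act weakly alone and are known to act together with NF-Y, which binds the CCAAT box. In RefSeq promoters of 300 bases (250 before and 50 after the start, build GRCm38.p6), 26 of the 32 members matched, with 35 promoters. Fdps, Fdft1 and Sqle, called lower in the phagocytes, had no promoter there, and neither did Stard4, Abcg1 and Npc1. The letters CCAAT, searched on both strands, were in the promoters of 14 of 15 matched synthesis genes (93.3%), and in those of 41.1% of all 27025 genes in the table. Among these 14 are Mvk, Lss, Tm7sf2, Nsdhl, Hsd17b7 and Dhcr7, which were called in none of the compared classes. Of the 4 matched efflux and LXR genes, Mylip held a CCAAT box, and Abca1, Nr1h2 and Nr1h3 did not. The box was also in 4 of 5 sensing genes and in both Soat1 and Npc2, the 2 matched transfer and storage genes. It was thus not particular to synthesis, with 21 of 26 matched members (80.8%) holding it. The longer SREBP letters TCACNCCAC were found in 1 of 18 synthesis promoters, that of Hmgcs1, and in 1.24% of all 32851 promoters. The LXR direct repeat, AGGTCA written again in the same direction after 4 free bases, was in none of the members' promoters and in 0.0152% of all promoters. A match is a run of letters, not a measured binding site, and these windows leave out more distant elements.

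The stretches are shown here because their genes were called lower in 1 or both of the classes above, each with the nearest CCAAT box upstream of the start in capitals (as ATTGG where it lies on the opposite strand), followed by an Hmgcs1 stretch with its SREBP letters in capitals. They read 5′ to 3′ along the gene's strand and lie at chr13:119690281-119690335 (Hmgcs1, plus strand), chr13:8885567-8885605 (Idi1, plus), chr5:4104698-4104751 (Cyp51, minus), chr8:64733604-64733658 (Msmo1, minus) and chr9:42264301-42264349 (Sc5d, minus). The boxes begin 45, 14, 29, 55 and 24 bases before the RefSeq start of these genes in this order. Idi1 has 2 boxes before its start and Msmo1 has 3, of which the nearest is shown. Hmgcs1 has 3 boxes before its start and another, not shown, that begins at position 11 after it. Of these, the box that begins 176 bases before the start lies unmarked in the stretch with the SREBP letters.
Hmgcs1: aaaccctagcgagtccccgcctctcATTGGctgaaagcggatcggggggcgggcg
Idi1: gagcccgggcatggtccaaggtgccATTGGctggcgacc
Cyp51: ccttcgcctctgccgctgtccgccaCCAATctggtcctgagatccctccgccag
Msmo1: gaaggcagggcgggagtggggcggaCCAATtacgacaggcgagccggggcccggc
Sc5d: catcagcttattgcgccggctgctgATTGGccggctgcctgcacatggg
Hmgcs1, chr13:119690174-119690262, plus strand: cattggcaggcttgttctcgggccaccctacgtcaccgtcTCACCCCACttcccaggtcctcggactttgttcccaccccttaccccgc

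Ebp, called higher in mature dendritic cell-like cells, also holds a CCAAT box, as does Soat1, called higher in 4 classes and lower in none. Whether the box goes with the direction of a gene was not tested.

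The other dendritic classes are given beside the mature cells. In cDC2-like cells (conventional dendritic cells of type 2) the synthesis sum was 504 CPM in 74 DPCP cells and 378 CPM in 204 control cells (ratio 1.33, interval 1.19 to 1.49), under the 1.5-fold line, while the early enzymes alone were called higher, at 233 CPM in DPCP and 148 CPM in control (ratio 1.57, interval 1.32 to 1.85). Pmvk, the phosphomevalonate kinase, was at 57.7 CPM in DPCP and 13.1 CPM in control (ratio 4.40, interval 2.80 to 7.07). Fdps was at 51.9 CPM in DPCP and 26.6 CPM in control (ratio 1.95, interval 1.33 to 2.86). Insig2 was lower, at 7.69 CPM in DPCP and 21.4 CPM in control (ratio 0.360, interval 0.147 to 0.765). In cDC2-like cells 3 of 24 members were called higher and 1 lower, against 8.68% of 7199 genes higher and 10.4% lower. The cDC1-like class was too small for comparison, with 18 DPCP cells and 35 control cells, and its synthesis sum is given as a value only, at 821 CPM in DPCP and 316 CPM in control. Plasmacytoid dendritic cell-like cells, 19 from DPCP and 6 from control skin, had 1109 CPM in DPCP and 1649 CPM in control, above every compared class, and Langerhans cell-like cells had 554 CPM in 32 DPCP cells and 416 CPM in 47 control cells.

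Abca1, the pump that loads cholesterol onto lipid-poor apolipoprotein A-I (gene at chr4:53030787-53159895, minus strand, GRCm38), was the member with the widest spread between classes. It was higher after DPCP in neutrophil-like cells, Lyz1 and Tenm4 phagocytes and mature dendritic cell-like cells, and lower in monocyte-like cells. Neutrophil-like cells had 244 CPM in DPCP and 58.0 CPM in control (ratio 4.20, interval 2.69 to 6.99), from 4508 DPCP UMIs and 19 control UMIs. Lyz1 and Tenm4 phagocytes had 140 CPM in DPCP and 42.3 CPM in control (ratio 3.31, interval 2.76 to 3.94). Mature dendritic cell-like cells had 49.8 CPM in DPCP and 16.6 CPM in control (ratio 3.01, interval 1.59 to 6.28), with 11 control UMIs.

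Monocyte-like cells had 51.7 CPM of Abca1 in DPCP and 140 CPM in control (ratio 0.370, interval 0.319 to 0.430). Macrophage-like cells had the highest Abca1 levels in both conditions, 461 CPM in DPCP and 360 CPM in control (ratio 1.28, interval 1.18 to 1.39), which did not reach 1.5-fold. In cDC2-like, epidermal γδ T-like and αβ T-like cells the ratios were 0.925, 1.16 and 0.908 with intervals that included 1. In DPCP skin the order of Abca1 levels was therefore macrophage-like, neutrophil-like, γδ T-like and Lyz1 and Tenm4 phagocyte, the intervals of γδ T-like cells (162 to 222 CPM) and Lyz1 and Tenm4 phagocytes (119 to 164 CPM) overlapped, and the 4 lowest classes, from 60.5 CPM in cDC2-like to 45.4 CPM in αβ T-like cells, had overlapping intervals. In control skin the order was macrophage-like, γδ T-like and monocyte-like, and the intervals of γδ T-like cells (140 to 190 CPM) and monocyte-like cells (125 to 155 CPM) overlapped.

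Because cells differ in depth, each cell was also thinned to 1000 UMIs. The share of cells with an Abca1 UMI was then 626 of 3487 DPCP neutrophil-like cells and 7 of 100 control ones, 13.7% in DPCP and 4.50% in control Lyz1 and Tenm4 phagocytes, and 5.77% in DPCP and 13.2% in control monocyte-like cells. Before thinning they were 40.3% in DPCP and 14.7% in control neutrophil-like cells, 67.1% in DPCP and 33.6% in control Lyz1 and Tenm4 phagocytes, and 32.6% in DPCP and 54.6% in control monocyte-like cells. Median depths in these classes were 4209 UMIs in DPCP and 2950 in control, 14449 in DPCP and 12994 in control, and 13228 in DPCP and 9833 in control. The αβ T-like cells, which had a low Abca1 level, had a UMI in 1 of 77 DPCP and 4 of 66 control cells after thinning, at a median depth of 9766 UMIs per DPCP cell and 7779 per control cell. In mature dendritic cell-like cells 2 of 88 DPCP and 2 of 51 control cells had one after thinning, and in either class these are too few to read an order from. No class is known here to lack Abca1, so a share from free RNA alone was not measured. Were the S100a8 and S100a9 UMIs outside the neutrophil class all neutrophil RNA, Abca1 at the neutrophil ratio would add 3.46 CPM to the 140 CPM of DPCP Lyz1 and Tenm4 phagocytes and 6.21 CPM to the 49.8 CPM of DPCP mature dendritic cell-like cells. These values cover neutrophil RNA only, and the part of RNA from other cells or of doublets was not tested.

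Abcg1, which exports sterol to mature high-density lipoprotein (chr17:31057675-31117988, plus strand, GRCm38), was called in the same direction as Abca1 in 2 classes and in the opposite one in 1. It was called higher in Lyz1 and Tenm4 phagocytes, at 196 CPM in DPCP and 117 CPM in control (ratio 1.67, interval 1.45 to 1.93). With 1 more class marker required its log2 ratio there was 0.41, beside 0.74, which no longer passed 1.5-fold, and that of Abca1 was 1.36, beside 1.73. In monocyte-like cells it was lower, at 91.8 CPM in DPCP and 213 CPM in control (ratio 0.431, interval 0.384 to 0.485). Mature dendritic cell-like cells had 160 CPM in DPCP and 251 CPM in control (ratio 0.636, interval 0.520 to 0.778), the opposite direction to Abca1 in the same cells, and with cells of a second class kept its log2 ratio was -0.55, beside -0.65, under 1.5-fold. It was also lower in αβ T-like cells, at 63.4 CPM in DPCP and 112 CPM in control (ratio 0.567, interval 0.394 to 0.816). In neutrophil-like cells the level was 141 CPM in DPCP and 180 CPM in control, and the interval of the ratio, 0.606 to 1.03, included 1.

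**Figure D3:**
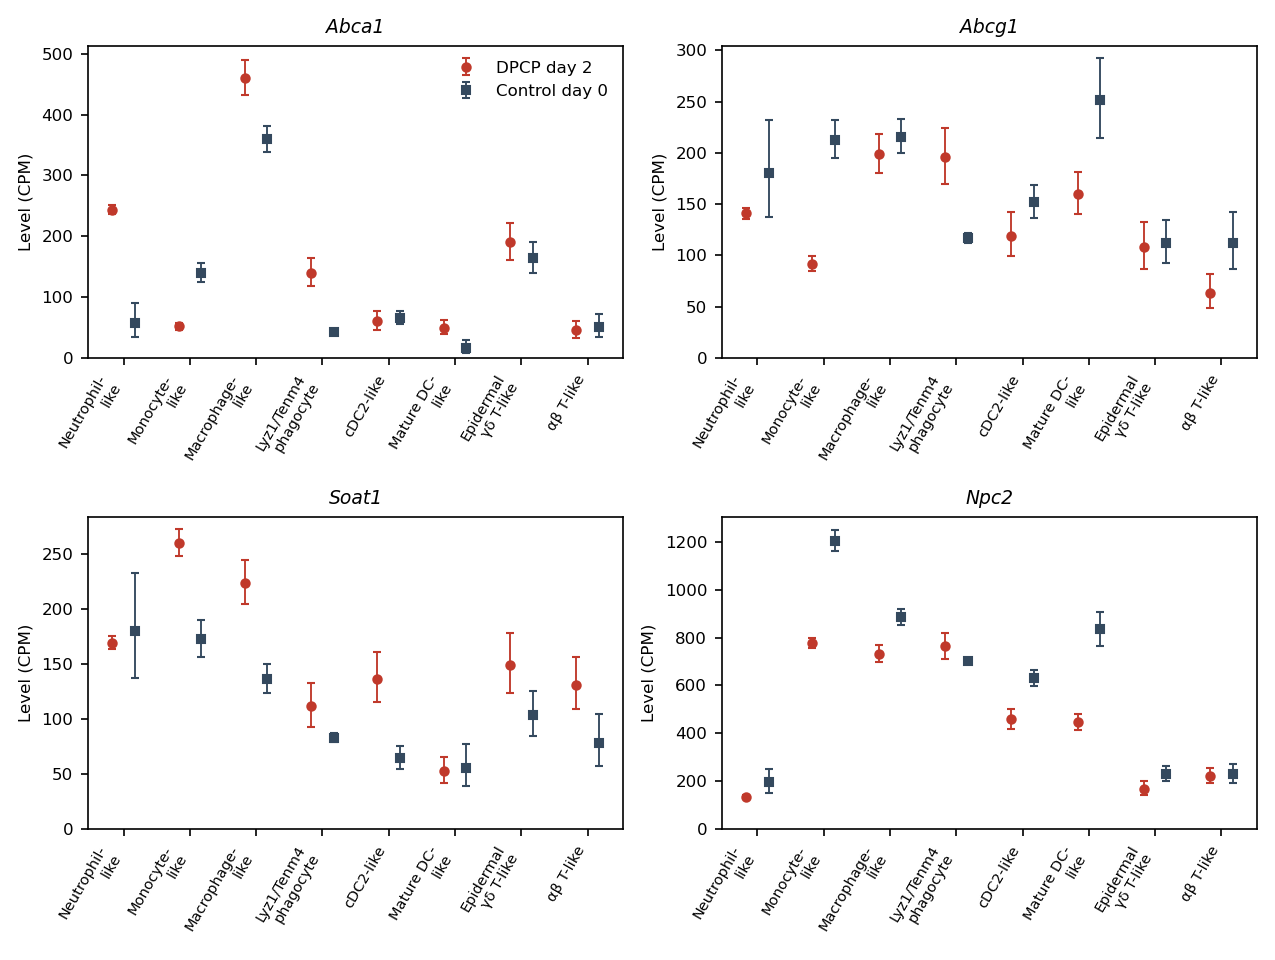
Level in CPM of Abca1, Abcg1, Soat1 and Npc2 in the 8 compared classes, with DPCP day 2 as red circles left of control day 0 as dark squares; bars are exact 95% Poisson intervals (counting error only). Abca1 is higher in DPCP in 3 classes and lower in monocyte-like cells, Soat1 is higher in DPCP in 4 classes, and Npc2 is lower in DPCP in monocyte-like and mature dendritic cell-like cells.

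Of the LXR genes, Nr1h2 was called in none of the 8 classes, with levels of 33.4 to 60.8 CPM in DPCP and 21.4 to 45.4 CPM in control. Nr1h3, the macrophage LXR, had 50 or more UMIs and a ratio in macrophage-like cells, at 22.3 CPM in DPCP and 11.1 CPM in control (ratio 2.01, interval 1.28 to 3.20), and a log2 ratio of 0.48, beside 1.01, with 1 more class marker, under 1.5-fold. In neutrophil-like cells it had 69 DPCP UMIs and no control UMI, where 3 control UMIs would be 9.15 CPM, above the 3.73 CPM measured in DPCP. Mylip was lower in monocyte-like cells, at 25.6 CPM in DPCP and 43.7 CPM in control (ratio 0.585, interval 0.458 to 0.751).

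Soat1, the enzyme that esterifies cholesterol for storage, was called higher in 4 classes and lower in none. Monocyte-like cells had 260 CPM in DPCP and 173 CPM in control (ratio 1.51, interval 1.36 to 1.68), which lies at the 1.5-fold line and was under it in 4 alternatives (log2 ratios of 0.48 to 0.56, beside 0.59). Macrophage-like cells had 223 CPM in DPCP and 136 CPM in control (ratio 1.64, interval 1.44 to 1.87), and cDC2-like cells 136 CPM in DPCP and 64.2 CPM in control (ratio 2.13, interval 1.68 to 2.70). In αβ T-like cells it was at 131 CPM in DPCP and 78.4 CPM in control (ratio 1.67, interval 1.19 to 2.39), and under 1.5-fold in 2 alternatives (log2 ratios of 0.55 and 0.58, beside 0.74). Npc2, the lysosomal carrier that hands sterol to NPC1, was lower in monocyte-like cells, at 776 CPM in DPCP and 1205 CPM in control (ratio 0.644, interval 0.616 to 0.674, with a log2 ratio of -0.58, beside -0.64, in 2 alternatives and so under 1.5-fold), and in mature dendritic cell-like cells, at 447 CPM in DPCP and 834 CPM in control (ratio 0.536, interval 0.479 to 0.601). Npc1, the membrane protein of the same export step, was called in none of the 8 classes.

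**Figure D4:**
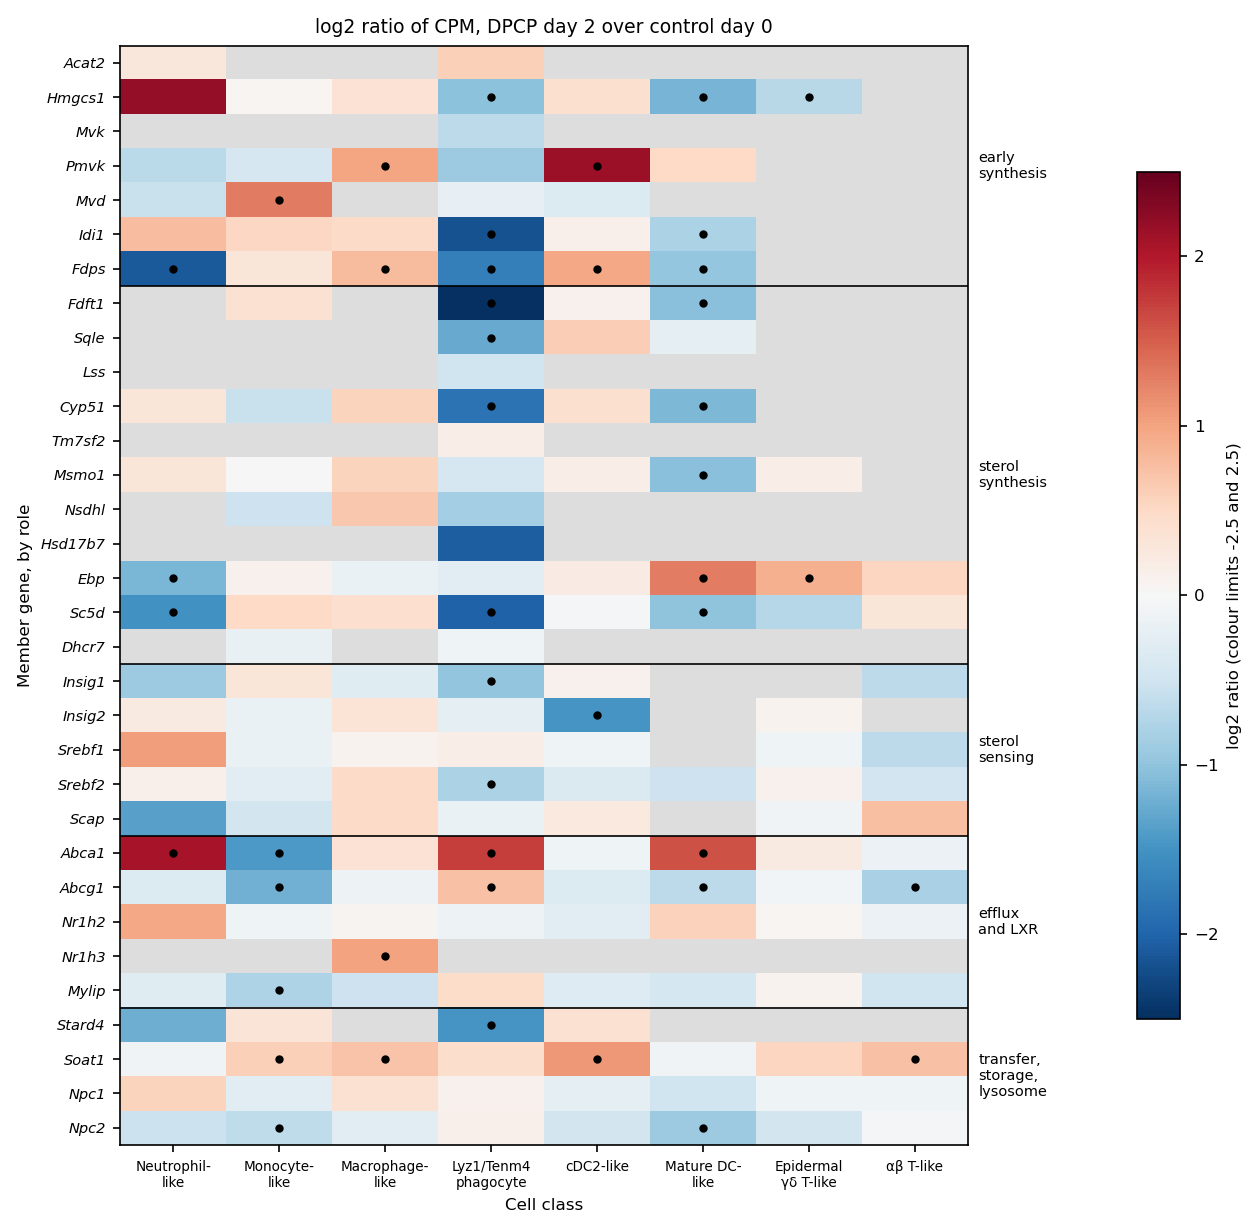
log2 ratio of CPM, DPCP day 2 over control day 0, for the 32 members (rows, grouped by role) in the 8 compared classes (columns); red is higher in DPCP, blue is lower, black dots mark called ratios, and grey marks fewer than 50 UMIs over both conditions or no UMI in 1 of them. The dots in the synthesis rows are mostly blue in the Lyz1 and Tenm4 phagocytes and mature dendritic cell-like cells, while Abca1 has red and blue dots; in the neutrophil-like column the scaling by the trimmed mean of M-values would add 0.67 to every ratio.

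In monocyte-like cells, then, 4 of 25 members were called lower (Abca1, Abcg1, Mylip and Npc2) and 2 higher (Soat1 and the decarboxylase Mvd, at 23.3 CPM in DPCP and 9.47 CPM in control), against 10.8% of 9271 genes lower and 11.7% higher. Of the 4 further LXR targets listed beside the members, 2 were called lower there: Pltp, the phospholipid transfer protein, was at 72.7 CPM in DPCP and 362 CPM in control (ratio 0.201, interval 0.180 to 0.224), and Lpcat3, which remodels phospholipids, at 26.7 CPM in DPCP and 43.7 CPM in control (ratio 0.611). Arl4c and Abca7 were not called. Pltp was not particular to these cells: it was also called lower in neutrophil-like (ratio 0.380), cDC2-like (0.593), γδ T-like (0.481) and αβ T-like cells (0.332), and Lyz1 and Tenm4 phagocytes held 1655 CPM of it in DPCP and 1282 CPM in control. Markers of those phagocytes summed to 634 CPM in DPCP and 1578 CPM in control monocyte-like cells. Lipa, the lysosomal acid lipase, was at 73.2 CPM in DPCP and 169 CPM in control (ratio 0.432), and Cd36, a scavenger receptor, at 5.62 CPM in DPCP and 38.3 CPM in control (ratio 0.147). Each was the only gene of its list called there. The other 4 uptake receptors with 50 or more UMIs had ratios of 1.19 to 1.58, and the other 3 storage genes 0.855 to 1.16. Macrophage marker genes summed to 678 CPM in DPCP and 1172 CPM in control monocyte-like cells. The part of these marker differences in the Pltp and efflux values was not tested. With 1 more monocyte marker required, the log2 ratio of the efflux and LXR sum was -1.01, beside -1.03.

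Macrophage-like cells, marked by complement C1q genes and Mrc1, had the highest efflux and LXR sum of the 8 classes, 781 CPM in 192 DPCP cells and 709 CPM in 301 control cells (ratio 1.10, interval 1.03 to 1.17). With 1 more class marker required the log2 ratio was -0.03, beside 0.14, so no direction can be given. Their synthesis sum was 267 CPM in DPCP and 210 CPM in control (ratio 1.27, interval 1.13 to 1.42). Of 22 members, 4 were called higher and none lower, against 9.65% of 8650 genes higher and 7.03% lower. Besides Nr1h3 and Soat1 these were Pmvk, at 30.0 CPM in DPCP and 15.2 CPM in control (ratio 1.97, interval 1.34 to 2.93), and Fdps, at 15.4 CPM in DPCP and 8.86 CPM in control (ratio 1.74, interval 1.03 to 2.98). Among the further LXR targets, Arl4c was at 240 CPM in DPCP and 76.6 CPM in control (ratio 3.13, interval 2.69 to 3.66), while Lpcat3 was lower (ratio 0.579, interval 0.430 to 0.774). Of the uptake receptors, Msr1 was at 208 CPM in DPCP and 110 CPM in control (ratio 1.90), and Cd36 at 65.9 CPM in DPCP and 155 CPM in control (ratio 0.426). In 15 DPCP macrophage-like cells that also held 2 or more of the inflammatory genes Pdpn, Arg1, Mmp12, Inhba and Nos2, Abca1 was at 624 CPM (interval 519 to 745) and Soat1 at 337 CPM (interval 262 to 429). The other 177 had 444 CPM (interval 416 to 474) and 212 CPM (interval 192 to 233) of these genes. In control skin 1 macrophage-like cell held 2 or more of these genes. Markers of the Lyz1 and Tenm4 phagocytes summed to 5265 CPM in DPCP and 12365 CPM in control macrophage-like cells. Those of Langerhans cells summed to 583 CPM in DPCP and 97.1 CPM in control macrophage-like cells. The part of these marker differences in the macrophage-like values was not tested.

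Neutrophil-like cells were numerous after DPCP, with 3493 cells, but control skin gave 102 cells and 327742 UMIs, so that each synthesis gene other than Sc5d had 0 to 11 control UMIs. Their synthesis sum was 151 CPM in DPCP and 232 CPM in control (ratio 0.651, interval 0.518 to 0.829), from 2791 DPCP and 76 control UMIs. Sc5d was at 40.6 CPM in DPCP and 116 CPM in control (ratio 0.350, interval 0.252 to 0.498), and it held 38 of the 76 control UMIs. Fdps and Ebp were lower as well, at 0.235 and 0.450 of the control level, with 4 and 11 control UMIs, and under the scaling described next Ebp had a log2 ratio of -0.48, beside -1.15, no longer past 1.5-fold. In neutrophil-like cells 1 of 25 members was called higher and 3 lower, against 7.27% of 9838 genes higher and 14.7% lower, a share near the background. The median log2 ratio of all genes was -0.28 in this class. Scaling by the trimmed mean of M-values (TMM) moved it by 0.67 and turned the log2 ratio of the synthesis sum to 0.05, beside -0.62 in CPM, so no direction can be given for synthesis in neutrophil-like cells. The Abca1 difference was larger under TMM, with a log2 ratio of 2.74 beside 2.07. Among the storage and uptake genes listed beside the members, Plin2, which coats lipid droplets, was at 265 CPM in DPCP and 15.3 CPM in control (ratio 17.4, interval 7.45 to 53.6), and Olr1, a receptor for oxidised lipoprotein, at 158 CPM in DPCP and 12.2 CPM in control (ratio 12.9, interval 5.04 to 47.4). Neither list moved as a whole. Of 5 uptake receptors with 50 or more UMIs, 1 was called higher, 1 lower and 3 were not called. Of 4 storage genes, 1 was called higher and 3 were not called.

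In the T-cell classes the members were called about as often as all genes were. Here 67.0% of DPCP γδ T-like and 67.5% of DPCP αβ T-like cells had less than 80% of their tag UMIs from their own tag. That left 31 and 25 DPCP cells at 80% own tag. In epidermal γδ T-like cells the synthesis sum was 314 CPM in 94 DPCP cells and 368 CPM in 119 control cells (ratio 0.853, interval 0.726 to 1.002), and Hmgcs1 was the member called lower, at 59.4 CPM in DPCP and 95.8 CPM in control (ratio 0.620, interval 0.431 to 0.881), and under 1.5-fold in 2 alternatives (log2 ratios of -0.50 and -0.58, beside -0.69). Ebp was called higher there, at 53.3 CPM in DPCP and 29.0 CPM in control (ratio 1.84, interval 1.13 to 3.03), but its log2 ratio was 0.01 in cells with at least 80% own tag, beside 0.88 in all. In total 1 of 15 members was called in each direction, against 8.62% of 6276 genes higher and 6.33% lower. In αβ T-like cells 1 of 13 members, Soat1, was called higher and 1, Abcg1, lower, against 8.38% of 5478 genes higher and 7.72% lower. Their synthesis sum was 320 CPM in 77 DPCP cells and 335 CPM in 66 control cells (ratio 0.955, interval 0.797 to 1.15).

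Over the 8 classes, 4 members were called higher in some and lower in others (Abca1, Abcg1, Ebp and Fdps), 4 were higher in at least 1 class and lower in none (Mvd, Nr1h3, Pmvk and Soat1), and 13 were lower in at least 1 and higher in none. The other 11 were called in no class: Acat2, Mvk, Lss, Tm7sf2, Nsdhl, Hsd17b7 and Dhcr7 among the enzymes, Srebf1 and Scap among the sensors, and Nr1h2 and Npc1. Their log2 ratios spanned -2.07 to 1.05 over the 41 class values with 50 or more UMIs. Mvk, Lss, Tm7sf2 and Hsd17b7 reached 50 UMIs in 1 class only, so that this minimum left them uncalled in the other classes. Among the values left out, Hsd17b7 had a ratio of 0.401 (interval 0.179 to 0.891) in mature dendritic cell-like cells, from 14 DPCP and 15 control UMIs. Mvk had a ratio of 0.339 (interval 0.0859 to 0.977) in cDC2-like cells, from 4 DPCP and 26 control UMIs.

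Similarity of pattern was measured across classes. Over the 16 sums of class and condition, the genes whose log2(CPM + 1) was most correlated with that of Sqle included Cyp51 (r = 0.916), Idi1 (0.890), Rcl1 (0.885) and Fdft1 (0.878), out of 8861 genes searched. For Abca1 they were Brox (0.829), Calm2, Snx29, Snx24 and, as the only other member, Npc1 (0.808). These values describe 16 sums of 1 library and were chosen as the highest of many.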

How the data were processed

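CD45+ skin cells of 2 tagged samples, DPCP day 2 and control day 0, were sequenced as 1 pooled 3′ library. The deposited matrix holds raw UMI counts per gene and cell, which the authors made with Cell Ranger 7.0.0 per the file headers. The submitters' processing notes name Cell Ranger 6.1.1, Seurat 4.0.1 and mm10 without roles. Conditions were read from the barcode suffix and the deposited aggregation table. The list of tag sequences and the separate tag library were left unused.

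Barcodes with fewer than 200 genes or with over 10% of UMIs from mitochondrial genes were left out, the second limit removing 3.53% of DPCP barcodes and 20.8% of control barcodes. No doublet caller was run. A marker counted as present where its UMIs exceeded the mean share over kept cells (Poisson upper tail 0.05), and a class needed 3 markers of 1 class and of no other. This cell rule was set after the class sizes were seen. The members, markers and gene lists were chosen with earlier results of these data known.

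For each class the UMIs of a condition were added up and scaled to CPM. Levels carry exact Poisson intervals and ratios exact conditional binomial ones (Python 3.11.15, scipy 1.17.1). The interval code was tested on simulated data. All genes with 50 or more UMIs were run through the same rule for the background shares. Every member was described by role, and other genes were taken from the fixed lists. The trimmed mean of M-values (edgeR 4.0.16) was an alternative scaling. Gene positions are from GENCODE on GRCm38, and promoters are from RefSeq on GRCm38.p6.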

Additional observations from a re-analysis of the deposited data

Results flagged for a closer look

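Some members and 1 sum passed 1.5-fold in opposite directions in different classes. The difference between classes was not tested in any of them, since each class has 1 sample per condition. All values are log2 ratios of DPCP over control.

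Abca1 stood at 2.07 in neutrophil-like cells, 1.73 in Lyz1 and Tenm4 phagocytes and 1.59 in mature dendritic cell-like cells, but at -1.43 in monocyte-like cells. Abcg1 stood at 0.74 in the Lyz1 and Tenm4 phagocytes, and at -1.21 in monocyte-like, -0.65 in mature dendritic cell-like and -0.82 in αβ T-like cells. The efflux and LXR sum was at 0.90 in the Lyz1 and Tenm4 phagocytes and at -1.03 in monocyte-like cells.

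Among the enzymes, Fdps stood at 0.96 in cDC2-like and 0.80 in macrophage-like cells, and at -2.09 in neutrophil-like cells, -1.71 in Lyz1 and Tenm4 phagocytes and -0.97 in mature dendritic cell-like cells. Ebp stood at 1.27 in mature dendritic cell-like and 0.88 in γδ T-like cells, and at -1.15 in neutrophil-like cells. The neutrophil-like values of Fdps and Ebp rest on 4 and 11 control UMIs. Under trimmed-mean scaling the neutrophil-like value of Ebp was -0.48, and at 80% own tag its γδ T-like value was 0.01, so that neither passed 1.5-fold. With 1 more marker the Lyz1 and Tenm4 values were 0.41 for Abcg1 and 0.58 for the efflux and LXR sum, both under 1.5-fold.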

How the results depend on the processing

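Of 284 values of the sums and their quotients under alternatives, 274 kept their direction, and of 101 that belong to results past 1.5-fold, 100 did. The exception was synthesis in neutrophil-like cells, where trimmed-mean scaling gave a log2 ratio of 0.05 and efflux 1.14. That scaling adds 0.67 to every ratio in this class. For the other values below the cause was not tested. No paired analysis was possible because each condition is 1 tagged sample, and no replicate could be left out.

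With 1 more marker required, log2 ratios became -0.12 (synthesis, a turned direction) and 0.89 (synthesis over efflux) in monocyte-like cells, 0.57, -0.03 (efflux, a turned direction) and 0.60 in macrophage-like cells, 0.58 (efflux, under 1.5-fold) and -1.42 in Lyz1 and Tenm4 phagocytes, and -0.65 (efflux) and 1.12 in cDC2-like cells. Abca1 and Abcg1 alone gave -1.30 (efflux) and 1.39 (quotient) in monocyte-like cells, 1.08 (efflux) in Lyz1 and Tenm4 phagocytes, and 0.49 and -0.89 over all cells. Without the 5% deepest cells cDC2-like cells had 0.61 (synthesis, now past 1.5-fold) and 1.02 (quotient). Without Sc5d the neutrophil-like quotient was -0.55, beside -1.09, and so under 1.5-fold. Keeping cells with markers of a second class gave -0.47 for mature dendritic synthesis, under 1.5-fold. At least 80% own tag gave -0.24 (efflux) and 0.03 (quotient) in γδ T-like cells, and 0.61 and -1.01 over all cells.

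Over all cells synthesis was at -0.48 without mitochondrial and ribosomal genes, -0.58 as a mean of cells, -0.53 without unassigned cells and -0.48 with control class weights, the last 2 chosen after seeing the data. Efflux was at 0.46, 0.60, 0.51 and 0.41 in these, and at 0.48 without cells rich in S100a8 and S100a9. The quotient was at -1.18 as a mean of cells and -0.88 without the S100-rich cells.

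Counts of members called depended on the UMI minimum and the fold. With 200 UMIs the higher count was 1 in monocyte-like, macrophage-like and cDC2-like cells and 0 in mature dendritic and both T-cell classes, and the lower count was 4 in mature dendritic cells and 0 in cDC2-like and both T-cell classes. With 20 UMIs or no minimum the lower count was 2 in cDC2-like, 4 in γδ T-like and 2 in αβ T-like cells. At 2-fold the higher count was 1 in monocyte-like, macrophage-like and Lyz1 and Tenm4 cells and 0 in both T-cell classes, and the lower count was 2 over all cells and in monocyte-like cells, 4 in mature dendritic cells and 0 in both T-cell classes.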

Other observations

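Classes under 50 cells in a condition were not compared. Natural killer cell-like cells had a synthesis sum of 132 CPM in 18 DPCP cells and 311 CPM in 20 control cells, and an efflux and LXR sum of 448 CPM in DPCP and 267 CPM in control. B cell-like cells had 520 CPM of synthesis transcripts in 10 DPCP cells and 153 CPM in 9 control cells, from 45 DPCP and 12 control UMIs. Group 2 innate lymphoid cell-like cells had 193 CPM in 6 DPCP cells and 360 CPM in 31 control cells, from 7 DPCP and 92 control UMIs.

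Cells without a class had an efflux and LXR sum of 503 CPM in DPCP and 327 CPM in control (ratio 1.54, interval 1.49 to 1.59) and a synthesis sum of 302 CPM in DPCP and 341 CPM in control (ratio 0.885, interval 0.854 to 0.916). In these cells 6 of 32 members were called higher and 6 lower, against 18.6% of 12616 genes higher and 15.7% lower.

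In monocyte-like cells Cyp7b1 stood at 21.2 CPM in DPCP and 3.30 CPM in control (ratio 6.44, interval 3.18 to 15.2), from 151 DPCP and 8 control UMIs, whereas in mature dendritic cell-like cells its ratio was 0.0998.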
